A study of Mus musculus with 4 samples.

Results

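The 10 genes *Mymk*, *Mymx*, *Jam3*, *Cav3*, *Myof*, *Dysf*, *Cdon*, *Boc*, *Neo1* and *Dock1* act in myoblast fusion or in the adhesion that precedes it, and were read by symbol from the 32285 genes counted in each of 4 single cell RNA-sequencing samples. Cells sorted for tdTomato came from hindlimb muscle of C57BL/6J mice aged 3-4 months, 14 days after tamoxifen, and each sample pooled 2 littermates. The 2 control samples carried *Pax7*CreERT2/+ and the Rosa26 tdTomato reporter with no floxed allele. The 2 α-cdKO samples carried the same Cre and reporter with *Ctnna1* fl/fl and *Ctnna3* fl/fl, the genes of αE- and αT-catenin, which tie cadherins to actin. Cre is limited to cells that express *Pax7* at the time of tamoxifen.

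Muscle stem cells are quiescent under *Pax7*, enter the myogenic program with *Myod1*, and become fusion-competent myocytes after *Myog* is switched on. Myocytes recognize and adhere to each other, rearrange actin at the contact, and then merge their membranes. Myomaker (*Mymk*), a multipass membrane protein, acts in the first mixing of lipids, and myomerger (*Mymx*), a microprotein, in opening the pore. *Jam3* is an immunoglobulin-type adhesion molecule, *Cav3* the muscle caveolin, and *Myof* and *Dysf* are ferlins that act in membrane fusion and repair. *Cdon* and *Boc* are cell surface coreceptors that act with cadherins and the Hedgehog pathway, *Neo1* is a receptor for netrins and repulsive guidance molecules, and *Dock1* activates the GTPase Rac.

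Of 31254 barcodes, 28790 were kept (400 or more genes, 1000 or more unique molecular identifiers [UMIs], and mitochondrial genes taking less than 15% of them), 5354 to 9786 per sample, with a median of 6452.5 to 8075 UMIs per cell. Of these, 1157 cells had at least 2% of their UMIs in 14 mature muscle genes such as *Ckm*, and 247 carried endothelial, mural, immune, glial or fibro-adipogenic markers (5 or more UMIs and 0.2% or more of the UMIs in 1 of 5 lists). The mature-muscle-rich cells made up 13.9% of control replicate 2 and 0.747% to 2.52% of the other samples, so that control replicate 2 stood apart. The other 27386 cells are called lineage cells. Between 9 and 26 kept barcodes were shared by any pair of samples. In lineage cells *Ctnna1* was at 91.1 and 74.4 CPM (UMIs of the gene for each 1000000 UMIs of the same cells) in the control pools and at 79.6 and 75.5 CPM in the α-cdKO pools. *Ctnna3* had 1 to 11 UMIs per sample. UMIs are read near the 3′ end of a transcript, which need not lie in the deleted part, so these values do not check recombination. α-cdKO replicate 1 held cells of female and of male mice, and the other samples almost only of male mice, and its values are also given by sex below.

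Lineage cells were grouped by their own UMIs of 3 genes that are not among the 10. Cells with *Pax7* but no *Myod1* or *Myog* UMI (5122 cells) form the Pax7 group, those with *Pax7* and *Myod1* but no *Myog* UMI (4112) the Pax7 and Myod1 group, those with *Myod1* only (7438) the Myod1 group, and those with at least 1 *Myog* UMI (871) the Myog group. The remaining 9843 cells had no UMI of the 3. The Myog group held 70 and 161 control and 403 and 237 α-cdKO cells, and they were deeper, with a median of 12413 UMIs against 7741.5 in the Pax7 group. Levels below are CPM over the summed cells of a group and sample, and n = 4 samples unless stated. Where 4 values follow each other, their order is control replicate 1, control replicate 2, α-cdKO replicate 1, α-cdKO replicate 2.

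The 10 genes fell into 3 patterns across these groups. *Mymk*, *Mymx*, *Jam3* and *Cav3* were raised in the Myog group. In the other lineage groups *Mymk* and *Mymx* were close to 0 and *Cav3* was low. *Jam3* was at means of 19.7 to 22.2 CPM there. *Cdon*, *Boc*, *Neo1* and *Dock1* were, among lineage cells, highest in those with *Pax7* and lower in the Myog group. *Myof* was low throughout, and *Dysf* was close to 0 in lineage cells. From the Pax7 to the Myog group, 4 of the 9 genes tested rose and 4 fell (edgeR quasi-likelihood test with the sample as a block, Benjamini-Hochberg adjusted over 10771 genes). Of all genes tested, 54.8% passed, 27.4% in each direction, so that passing this test is common in this comparison. With library totals in place of TMM scaling factors, the split of all calls moved from 49.9% to 62.3% higher, with 4 of the 10 genes higher and 4 lower as before. Without control replicate 2, and without each other sample in turn, 4 were higher and 4 lower as well.

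**Figure D1:**
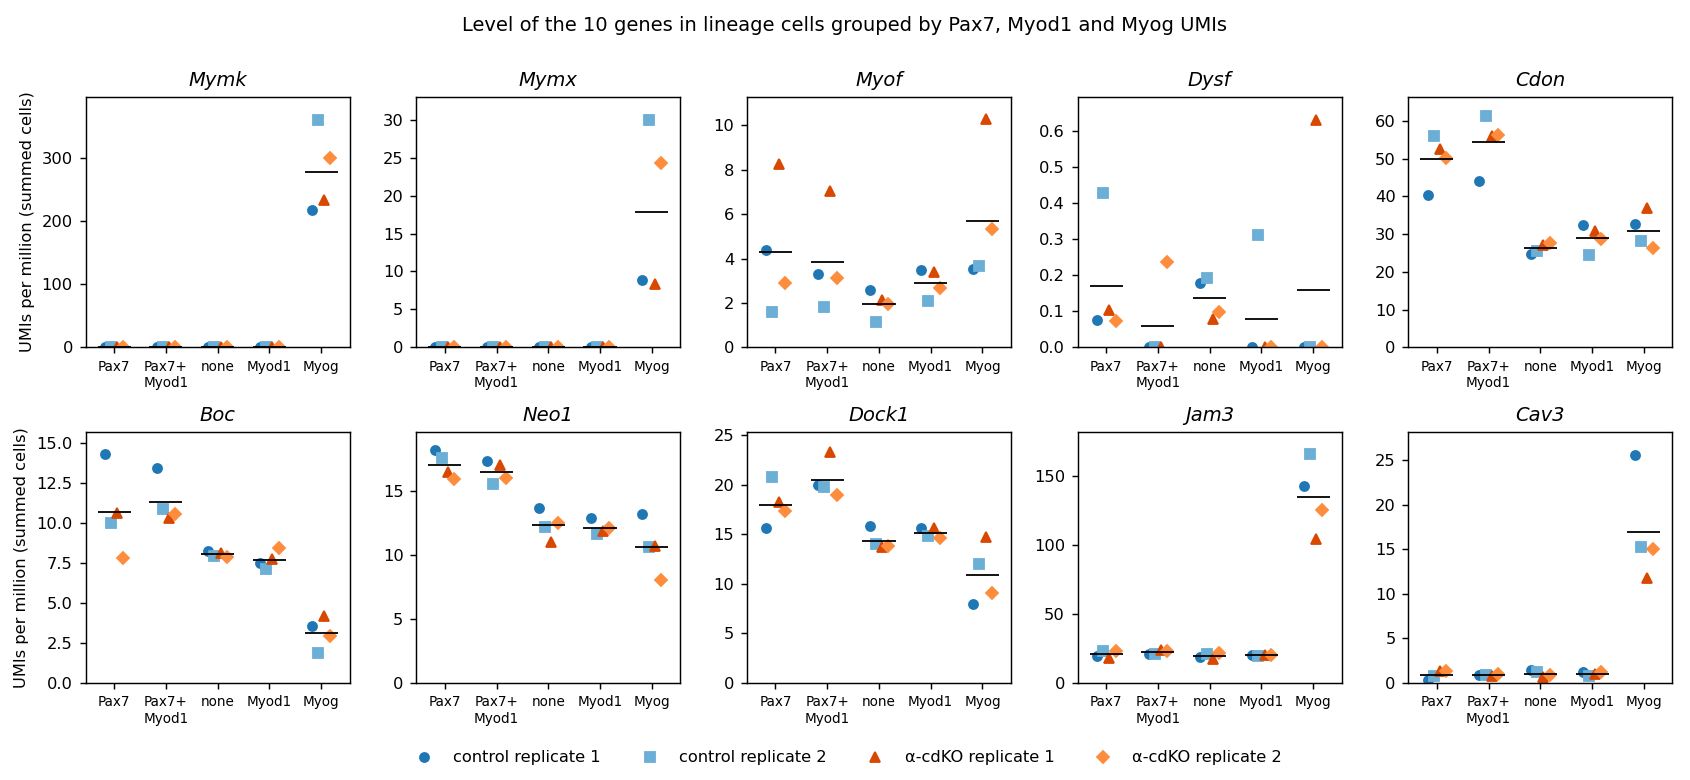
Level of each gene in CPM (linear axis from 0, a scale of its own for each gene) in the 5 groups of lineage cells. Points are the 4 samples and bars their mean. *Mymk*, *Mymx*, *Jam3* and *Cav3* stand out in the Myog group of every sample. The means of *Cdon* and *Boc* are higher in groups with *Pax7*. In α-cdKO replicate 2, *Boc* is at 7.79 CPM in the Pax7 group and 8.44 CPM in the Myod1 group.

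*Mymk* (chromosome 2, 27061636 to 27072179, minus strand, GRCm38) was detected almost entirely in the Myog group. Its level there was 218, 361, 234 and 301 CPM, a mean of 279 ± 65.7 CPM (SD, n = 4). In the Pax7 group the same samples held 0, 1, 1 and 6 UMIs, between 0 and 0.437 CPM. The groups did not overlap in any sample, and the log2 fold change was 10.23 ± 0.21 (SE, adjusted p = 5.33e-12, edgeR). Over summed UMIs this was a 1500-fold difference, with a 95% counting interval of 760 to 3478. In cells with *Myod1* alone *Mymk* stayed close to 0, at 0, 0.234, 0.286 and 0.584 CPM.

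Of 493 lineage cells with a *Mymk* UMI, 457 (92.7%) were in the Myog group, which holds 3.18% of lineage cells. Among the 399 cells with at least 2 *Mymk* UMIs, 391 were in it. The share was 100% (36 of 36 cells) in control replicate 1, 95.1% in control replicate 2, 91.5% in α-cdKO replicate 1 and 91.4% in α-cdKO replicate 2. The converse did not hold, as many cells with *Myog* had no *Mymk* UMI. With every cell thinned to 4000 UMIs and shallower cells left out, 335 of 803 Myog group cells had a *Mymk* UMI, 41.7% (38.3 to 45.2, exact Clopper-Pearson interval at 95%). The samples ranged from 38.4% to 47.8%. In the Pax7 group the share was 0.107% (0.0347 to 0.249), and in the non-myogenic cells 0 of 161, which allows a share of up to 1.86%. Intervals and such limits cover counting error only.

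*Mymx* (chromosome 17, 45600971 to 45602102, minus strand) had the same distribution at a lower level. In the Myog group 10, 65, 40 and 91 UMIs were counted, or 8.81, 30.0, 8.41 and 24.3 CPM. Replicate 1 of each genotype was at the low end and replicate 2 at the high end. The Pax7 group held 0 UMIs in all 4 samples, so the level in the Myog group was at least 252-fold higher, taking 3 UMIs over the summed group as the limit (adjusted p = 1.86e-07, edgeR). Against the Myod1 group, with 2 UMIs in all, the ratio was 534 (counting interval 146 to 4437). Of 75 lineage cells with a *Mymx* UMI, 70 were in the Myog group, as were all 33 cells with at least 2.

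*Jam3* (chromosome 9, 27097384 to 27155421, minus strand) differed from this pair in that it was measured in every group. In the Pax7 group it had 19.4, 23.0, 17.7 and 23.0 CPM. The Myod1 group lay within that range, at 19.1 to 20.3 CPM, and the 2 groups could not be told apart (log2 fold change 0.06 ± 0.09, adjusted p = 0.597). In the Myog group *Jam3* reached 143, 166, 104 and 126 CPM, above every other lineage group in every sample. The log2 fold change from the Pax7 group was 2.51 ± 0.10 (adjusted p = 1.12e-09), with per-sample ratios of 5.46 to 7.36. Of 4406 lineage cells with a *Jam3* UMI, 531 (12.1%) were in the Myog group. Non-myogenic cells, at 38.4 to 71.0 CPM, lay between the Pax7 and the Myog group. The overlapping antisense gene *Gm48796* had 5 UMIs in the Myog group, against 1488 for *Jam3*.

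*Cav3* (chromosome 6, 112459505 to 112472872, plus strand) rose from 0.308, 0.716, 1.36 and 1.31 CPM in the Pax7 group to 25.5, 15.2, 11.8 and 14.97 CPM in the Myog group. The groups did not overlap, and the log2 fold change was 3.92 ± 0.37 (adjusted p = 1.96e-06). Of 271 lineage cells with a *Cav3* UMI, 89 (32.8%) were in the Myog group. The level of *Cav3* in the Myod1 group was 0.703 to 1.17 CPM. *Cav3* was higher still in the mature-muscle-rich cells set aside, at 54.9 to 75.9 CPM, a pooled ratio of 4.11 to the Myog group (counting interval 3.39 to 4.99). Within the Myog group the 14 mature muscle genes, all detected, summed to 296 to 977 CPM, against 92.3 to 229 CPM in the Pax7 group. The markers of other cell types did not all go the same way. From the Pax7 to the Myog group the 4 mural genes, all detected, went from 6.37 to 11.9 up to 12.9 to 26.7 CPM over the samples, and were higher in every sample. The 6 glial genes went from 2.92 to 4.47 CPM (*Sox10* and *Gfra3* at 0) to 2.77 to 10.6 CPM (6 detected), the 7 endothelial genes from 7.16 to 16.1 CPM to 5.07 to 11.5 CPM (*Cdh5* and *Kdr* at 0), and the 7 immune genes from 1.89 to 6.44 CPM to 0.802 to 3.52 CPM (*Ptprc* and *Tyrobp* at 0). Their part in the rise of the 4 genes was not tested. When cells with 1% or more mature muscle UMIs were left out, the log2 fold change of *Cav3* was 3.89 (adjusted p = 9.96e-07, over all alternatives 2.57e-44 to 5.25e-05). Without control replicate 1, in which *Cav3* was highest, it was 3.41.

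*Cav3* was also the only one of the 6 genes with a RefSeq promoter entry (build GRCm38.p6, 7 windows for *Myof*, *Dysf*, *Cdon*, *Neo1*, *Dock1* and *Cav3*) whose 250 bases before the start held CAGCTG, a form of E-box, the motif of MyoD family factors. It is shown because *Cav3* is the one rising gene with an entry, with the E-box, 106 bases before the start, in capitals. The motif reads the same on both strands and was found in 4271 of 32851 windows of this length. The other forms searched, CACCTG and its reverse complement CAGGTG, which do not overlap it, were in 0 of the 7 windows and in 17.2% of all windows. A match is a description of the sequence and not evidence of binding. The window lies at chr6:112459255-112459504, plus strand.
Cav3: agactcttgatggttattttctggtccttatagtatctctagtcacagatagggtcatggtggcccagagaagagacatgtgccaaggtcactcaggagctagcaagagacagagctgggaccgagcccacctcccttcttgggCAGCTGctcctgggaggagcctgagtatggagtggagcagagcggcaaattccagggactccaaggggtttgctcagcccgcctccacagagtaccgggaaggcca

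Within the Myog group *Mymk*, *Mymx* and *Jam3* were higher, and *Cdon* and *Boc* lower, in the cells with the most *Myog*. These bins were chosen after the values were seen and are given without a test. In the 249 cells with 1 *Myog* UMI, *Mymk* had 0, 20.1, 22.6 and 3.09 CPM. In the 422 cells with at least 10 it had 304, 538, 386 and 435 CPM. Of the 206 *Mymx* UMIs in the Myog group, 200 were in those 422 cells, and none were in cells with 1 *Myog* UMI. *Jam3* rose from a mean of 45.0 ± 15.7 CPM at 1 *Myog* UMI to 175 ± 39.4 CPM at 10 or more. *Cdon* went the other way, from 55.0 ± 10.6 to 19.7 ± 4.15 CPM, and was lower in the highest bin in every sample. *Boc* was also lower, at 5.38 ± 2.69 and 2.55 ± 1.22 CPM, from 15 and 17 UMIs. *Cav3* was uneven, at 0.622 CPM with 1 *Myog* UMI, 35.6 ± 30.7 CPM with 2 to 4 and 20.6 ± 7.14 CPM with 10 or more. Cells with 10 or more *Myog* UMIs were deeper (median 15836 UMIs) than those with 1 (8834).

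At equal depth *Mymk*, *Jam3*, *Mymx* and *Cav3* were found in the largest share of cells at 5 or more *Myog* UMIs. Among cells thinned to 4000 UMIs, a *Mymk* UMI was found in 0.114% of 24530 cells with no *Myog* UMI, in 12.6% (7.96 to 18.6) of 167 cells with 1, in 38.3% (24.5 to 53.6) of 47 with 2, in 42.5% (31.5 to 54.1) of 80 with 3 to 4 and in 71.5% (66.4 to 76.2) of 347 with at least 5. The last bin lay between 61.3% and 75.4% in each of the 4 samples. *Jam3* went from 7.47% of cells with no *Myog* UMI to 46.1% (40.8 to 51.5) with at least 5. In the bins between it was found in 20.4%, 38.3% and 36.25%. From 1 to at least 5 *Myog* UMIs, a *Mymx* UMI was found in 0, 2, 0 and 22 cells. Over the same bins, a *Cav3* UMI was found in 1.80%, 4.26%, 1.25% and 6.05% of cells, and a *Boc* UMI in 3.59%, 0%, 1.25% and 0.576%. A *Cdon* UMI was found in 11.7% (11.3 to 12.1) of cells with no *Myog* UMI, 18.6% (12.97 to 25.3) of those with 1 and 7.49% (4.95 to 10.8) with at least 5. *Neo1*, *Dock1* and *Myof* had no steady trend. From 1 to at least 5 *Myog* UMIs, a *Dock1* UMI was found in 5.39%, 2.13%, 6.25% and 5.48% of cells, a *Neo1* UMI in 4.79%, 2.13%, 7.5% and 3.46%, and a *Myof* UMI in 1.80%, 6.38%, 2.50% and 1.15%. The bins of 2 and of 3 to 4 *Myog* UMIs had overlapping intervals for each of the 6 genes plotted.

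**Figure D2:**
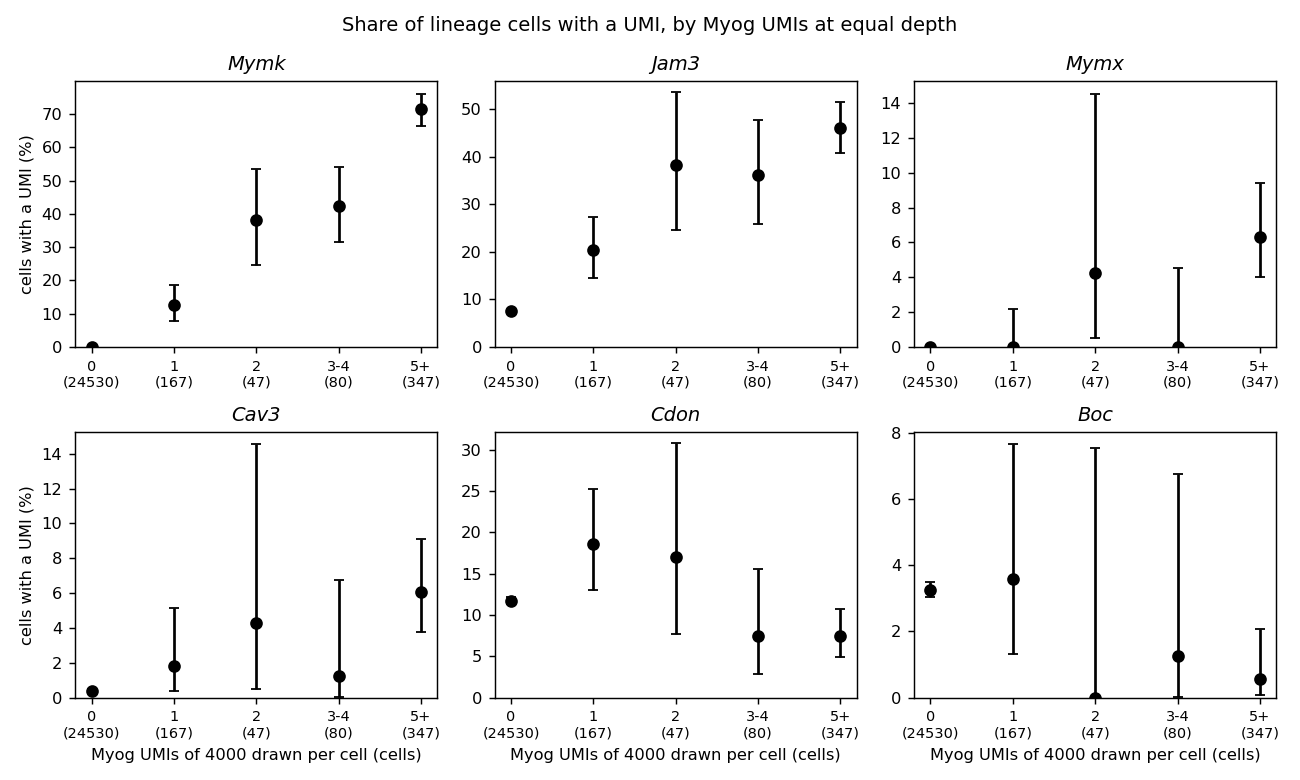
Percentage of lineage cells with a UMI of 6 of the genes (linear axis from 0) by the number of *Myog* UMIs, with each cell thinned to 4000 UMIs. Points are shares over the cells of 4 samples, bars are exact 95% intervals for counting error only, and the number of cells is in parentheses. *Mymk* reaches 71.5% and *Jam3* 46.1% at 5 or more *Myog* UMIs, while *Cdon* goes from 11.7% with none to 18.6% with 1 and 7.49% with 5 or more.

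The surface receptors *Cdon*, *Boc* and *Neo1* and the Rac activator *Dock1* were lower in the Myog group than in the Pax7 group. The 5 fibro-adipogenic marker genes, all detected in both groups, were also lower in every sample, at 102 to 151 CPM in the Pax7 group and 18.7 to 32.6 CPM in the Myog group, and their part in these falls was not tested. *Cdon* (chromosome 9, 35421128 to 35507652, plus strand) had 40.3, 56.0, 52.6 and 50.2 CPM in the Pax7 group. It was as high or higher in the Pax7 and Myod1 group of each sample, at 44.0 to 61.4 CPM. In the Myod1 group it had dropped to 32.5, 24.4, 30.9 and 28.6 CPM, below the Pax7 group in every sample (log2 fold change -0.66 ± 0.10, adjusted p = 9.67e-05). The Myog group was at 32.6, 28.1, 36.8 and 26.2 CPM, which was below the Pax7 group (-0.86 ± 0.12, adjusted p = 7.28e-05) but did not differ past the threshold from the Myod1 group (-0.16 ± 0.12, adjusted p = 0.265). The fold change is after TMM scaling. In CPM, which is without TMM factors, the Myog group was above the Myod1 group in 3 samples and below it in 1. Without the 5% of cells with the most UMIs, the difference from the Pax7 group was -0.44 (adjusted p = 0.0110, over all alternatives 2.24e-11 to 0.0110). Where the Myog group needed at least 2 *Myog* UMIs, *Cdon* was lower than in the Myod1 group by -0.51 (adjusted p = 0.00494). The level without any of the 3 markers, 24.7 to 27.6 CPM, lay among those of the Myod1 group.

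*Boc* (chromosome 16, 44485049 to 44558897, minus strand) had the largest fall of the 10 genes. It had 14.3, 10.0, 10.6 and 7.79 CPM in the Pax7 group and 3.52, 1.84, 4.21 and 2.94 CPM in the Myog group. The highest value in the Myog group was below the lowest in the Pax7 group (log2 fold change -1.79 ± 0.24, adjusted p = 4.28e-05). Only 39 *Boc* UMIs were counted in the Myog group. The Myod1 group, at 7.11 to 8.44 CPM, was not past the threshold against the Pax7 group (-0.30 ± 0.14, adjusted p = 0.0958), and the Myog group was lower than the Myod1 group (-1.51 ± 0.24, adjusted p = 1.91e-04). Without α-cdKO replicate 2 the first of these differences did pass (-0.50, adjusted p = 0.0162).

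*Neo1* (chromosome 9, 58874687 to 59036441, minus strand) had a mean of 17.1 ± 1.02 CPM in the Pax7 group, 12.1 ± 0.523 CPM in the Myod1 group and 10.6 ± 2.12 CPM in the Myog group. All 4 samples were lower in the Myod1 than in the Pax7 group (log2 fold change -0.36 ± 0.09, adjusted p = 0.00331) and in the Myog than in the Pax7 group (-0.87 ± 0.15, adjusted p = 3.96e-04). The first of these did not pass with DESeq2 (adjusted p = 0.0520). From the Myod1 to the Myog group *Neo1* was lower by -0.49 ± 0.16 (adjusted p = 0.0230), which did not pass without α-cdKO replicate 1 (adjusted p = 0.0524), without α-cdKO replicate 2 (0.150) or with DESeq2 (0.0647). *Dock1* (chromosome 7, 134670654 to 135173639, plus strand) had 18.0 ± 2.14 CPM in the Pax7 group and 20.5 ± 1.94 CPM in the Pax7 and Myod1 group. The Myod1 group, at 15.2 ± 0.549 CPM, did not differ from the Pax7 group past the threshold (-0.12 ± 0.09, adjusted p = 0.302), and the Myog group was lower at 10.9 ± 3.05 CPM (-0.83 ± 0.17, adjusted p = 9.63e-04). Non-myogenic cells held more *Dock1* than any lineage group, at 51.7, 38.4, 41.7 and 53.8 CPM, a pooled ratio to the Pax7 group of 2.69 (counting interval 2.16 to 3.33).

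From the Pax7 to the Myod1 group as a whole, 2 of the 7 genes tested fell (*Cdon* and *Neo1*) and 0 rose, where 48.3% of all genes passed, 24.5% higher and 23.8% lower. From the Myod1 to the Myog group 5 rose and 3 fell of the 9 tested, where 59.1% of all genes passed, 30.2% higher and 28.9% lower. With library totals only, *Boc* and *Dock1* also fell in the first of these steps, whose median over all genes then lay at -0.16, and *Neo1* and *Dock1* no longer passed in the second, whose median lay at 0.25. Into the Myog group, the *Mymk*, *Jam3* and *Cav3* changes were larger than the shift of 0.25.

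The ferlins had low levels in lineage cells. *Myof* (chromosome 19, 37899036 to 38043577, minus strand) had 4.39, 1.57, 8.24 and 2.91 CPM in the Pax7 group and 3.52, 3.69, 10.3 and 5.35 CPM in the Myog group. α-cdKO replicate 1 was highest in both groups, and the spread between samples was larger than the difference between groups (log2 fold change 0.36 ± 0.26, adjusted p = 0.259). From the Pax7 to the Myod1 group, at 2.11 to 3.50 CPM, *Myof* was at -0.41 ± 0.22 (adjusted p = 0.142), which passed without control replicate 2 (-0.54, adjusted p = 0.0456) and was 0.046 without α-cdKO replicate 1. Against the Myod1 group *Myof* passed in the Myog group (0.83 ± 0.28, adjusted p = 0.0232), but not without α-cdKO replicate 1 (0.48, adjusted p = 0.270), without α-cdKO replicate 2 (0.82, adjusted p = 0.0831) or with DESeq2 (adjusted p = 0.119). Non-myogenic cells had more *Myof* than any lineage group, at 13.6 to 37.3 CPM.

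*Dysf* (chromosome 6, 84008590 to 84211060, plus strand) had 25 UMIs in the 27386 lineage cells, 3 of them in the Myog group, too few to compare. The cells that were set aside did hold it. Mature-muscle-rich cells had 18.5, 13.4, 10.7 and 14.7 CPM, and non-myogenic cells 24.5, 24.0, 28.5 and 19.4 CPM. Every one of these values was above the highest in any lineage group, 0.631 CPM. The same mature-muscle-rich cells held 0 *Mymx* UMIs and 7 *Mymk* UMIs, all in control replicate 2.

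Co-detection within single cells was above expectation for pairs of the genes raised in the Myog group. Of 25171 lineage cells thinned to 4000 UMIs, 349 had a *Mymk* UMI and 26 a *Mymx* UMI, and 19 had both, where 0.353 would be expected if the genes were independent within each sample. In all 4 samples the pair was above expectation. *Mymk* was also found with *Cav3* in 25 cells (1.73 expected) and with *Jam3* in 151 cells (28.9 expected), and *Mymx* with *Jam3* in 12 cells (2.17 expected). *Jam3* and *Cav3* shared 17 cells (9.97 expected), a lower ratio of 1.70. *Mymx* and *Cav3* shared only 1 cell (0.119 expected), above expectation in 1 of 4 samples, and 0 cells at 2000 UMIs per cell. *Mymk* and *Boc* shared 1 cell where 10.9 were expected, and *Mymk* and *Cdon* 23 where 40.7 were expected. The pairs of the 4 lower genes were close to expectation and went both ways. *Cdon* was found with *Neo1* in 180 cells (144 expected), with *Dock1* in 199 (164 expected) and with *Boc* in 108 (94.6 expected), and *Neo1* with *Dock1* in 81 (68.3 expected). *Boc* was found with *Neo1* in 34 cells (39.5 expected) and with *Dock1* in 36 (45.2 expected), each above expectation in 1 of 4 samples. *Cdon* and *Jam3* shared 240 cells (243 expected).

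The excess was smaller among cells with *Myog*. Of the 349 cells with *Mymk*, 321 also had a *Myog* UMI at this depth. Among the 641 cells with a *Myog* UMI, *Mymk* and *Mymx* shared 19 cells (12.2 expected), *Mymk* and *Jam3* 144 (122 expected) and *Mymk* and *Cav3* 22 (13.7 expected), ratios of 1.56, 1.18 and 1.60. *Jam3* and *Cav3* shared 7 of these cells where 10.1 were expected, and *Mymk* and *Pax7* shared 8 where 25.6 were expected. Of the 24 *Mymx* cells with *Myog*, 79.2% had a *Mymk* UMI, against 50.1% of all cells with *Myog*. These counts carry no test, since cells of 1 sample are no replicates.

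**Figure D3:**
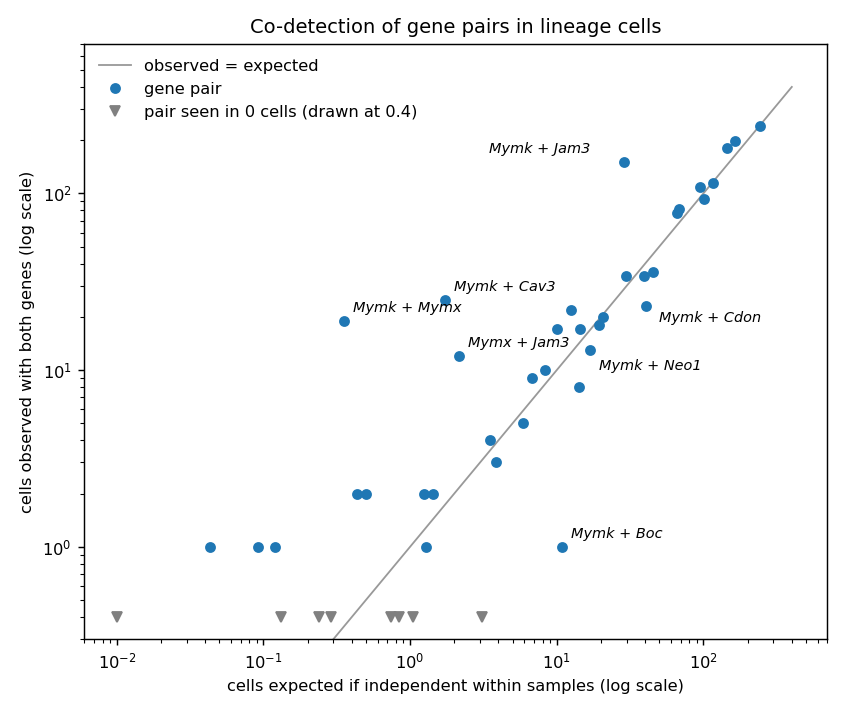
Lineage cells observed with UMIs of both genes of a pair against the number expected if the genes were independent within each sample (both axes log scale, cells thinned to 4000 UMIs). Each point is a pair of the 10 genes, and gray triangles are pairs seen in 0 cells. The line marks equality. *Mymk* with *Mymx*, *Cav3* and *Jam3* lies above it, and *Mymk* with *Boc* below it.

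The genes most like each of the 10 were searched among 6157 genes with a mean of at least 10 CPM, by Pearson's r of log2(CPM + 5) over 20 sums (5 groups in 4 samples). These are descriptions, and sums of 1 sample share its library. *Mymk* was most like *Myog* (r = 0.999), which defines a group, then *Mylk4* and *Actc1*, the cardiac actin of developing muscle (both r = 0.999). *Actc1* went from a mean of 0.628 CPM in the Pax7 group to 708 CPM in the Myog group. *Jam3* was most like *Plin3* (r = 0.994), *Mymk* and *Myog*, *Cav3* like *Pcp4*, *Trnau1ap* and *Rab5c* (r = 0.983 to 0.987), and *Mymx* like *Pkia*, *Isyna1* and *Creld1* (r = 0.970 to 0.972). *Cdon* was most like *Arhgap5*, *Bace1* and *Peg3* (r = 0.930 to 0.940). *Boc* was most like *Abca8b*, *Col5a1* and *Clk4* (r = 0.946 to 0.957), *Neo1* like *Abca5*, *Prrx1* and *Dmd*, the dystrophin gene (r = 0.933 to 0.953), and *Dock1* like *Cntln*, *Irf8* and *Pola1* (r = 0.891 to 0.916). For *Myof* the values were lower, with *Atf7ip*, *Cdc40* and *Tulp4* at 0.825 to 0.838, and for *Dysf* none passed 0.474 (*Stim2*, *Gm17251* and *P2ry1*).

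Other genes of the same processes were taken from 4 lists of 63 genes in all. Beside their counts, 27.4% of all genes tested passed in each direction from the Pax7 to the Myog group. Among 15 fusion adhesion partners, 4 rose and 4 fell of 12 tested from the Pax7 to the Myog group, with a median log2 fold change of -0.01, beside -0.02 over all genes tested. *Tmem182*, an integrin-binding membrane protein of muscle, rose from 0.127 ± 0.205 to 22.3 ± 5.79 CPM (log2 fold change 7.48 ± 0.42), *Adam12*, a metalloprotease of fusing myoblasts, from 4.63 ± 2.40 to 29.0 ± 11.6 CPM (2.45 ± 0.21) and *Jam2*, the binding partner of *Jam3*, from 0.925 ± 0.409 to 3.48 ± 0.743 CPM (1.58 ± 0.41). *Vcam1*, the ligand of α4 integrin, fell from 393 ± 17.3 to 157 ± 20.8 CPM (-1.50 ± 0.08), *Kirrel*, an immunoglobulin-type adhesion molecule, from 26.9 ± 3.52 to 9.26 ± 3.44 CPM (-1.65 ± 0.17), and *Cdh2*, which encodes N-cadherin, by -0.95 ± 0.25.

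The 17 actin signaling genes had 3 rises and 2 falls among 15 tested, with a median of 0.05. *Elmo1*, which forms the Rac-activating complex with *Dock1*, rose from 5.52 ± 2.30 to 45.4 ± 4.67 CPM (2.93 ± 0.22), opposite in direction to *Dock1*. *Arhgef7* (0.96 ± 0.13) and *Trio* (0.37 ± 0.11), both exchange factors, also rose, and *Crk*, an adaptor, fell by 0.59 ± 0.10 and *Cdc42*, a GTPase, by 0.24 ± 0.08. Membrane, lipid and repair genes had 1 rise and 7 falls among 10 tested of 16, with a median of -0.52. *Cav1*, the caveolin of most non-muscle cells, fell from 209 ± 16.9 to 74.7 ± 19.5 CPM (-1.66 ± 0.11), opposite in direction to *Cav3*. *Anxa5*, an annexin (-1.27 ± 0.09), and *Ehd2*, a caveolar ATPase (-0.72 ± 0.14), fell, and *Fgfrl1*, an FGF receptor without a kinase domain, rose (0.56 ± 0.21).

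Among 15 partners of *Cdon*, *Boc* and *Neo1*, 2 rose and 8 fell of 14 tested, with a median of -0.56. The Hedgehog transcription factors *Gli1* (from 4.89 ± 0.639 to 0.623 ± 0.328 CPM, -3.34 ± 0.41) and *Gli2* (-1.93 ± 0.31) and the netrin *Ntn4* (from 55.8 ± 6.15 to 13.6 ± 5.67 CPM, -2.20 ± 0.19) had the largest falls. *Bnip2*, a scaffold that binds Cdon (0.40 ± 0.09), and *Tcf3*, an E protein that pairs with MyoD (0.45 ± 0.14), rose.

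**Figure D4:**
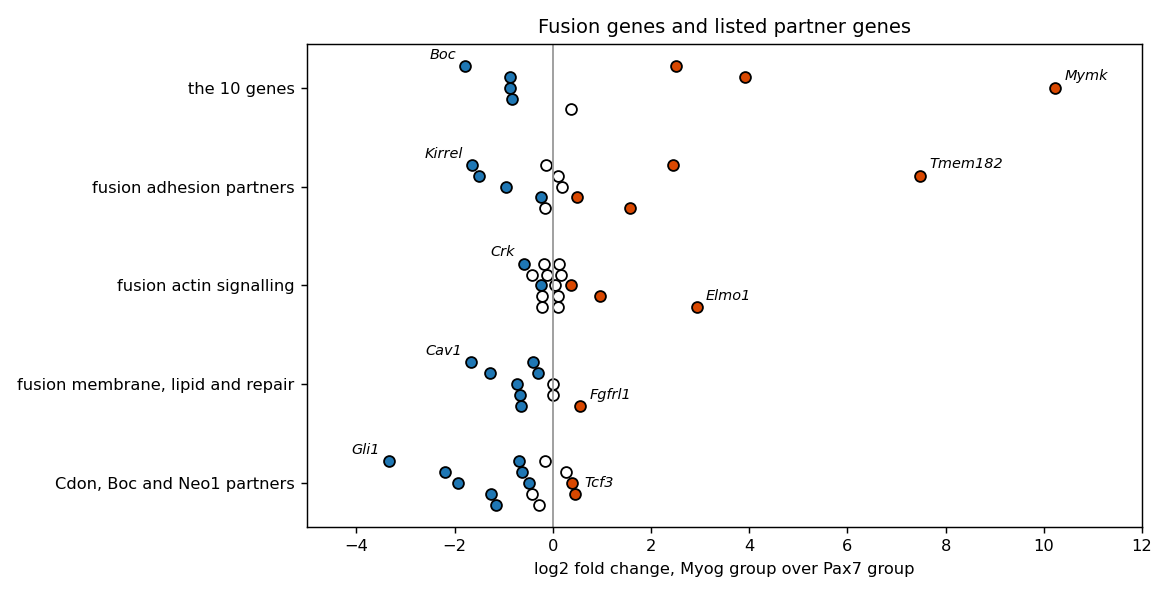
Log2 fold change from the Pax7 to the Myog group (edgeR, 4 samples as blocks) of the 10 genes and 4 lists of partner genes. Each point is a gene tested, orange if higher and blue if lower at an adjusted p under 0.05 and white otherwise, with the extremes named. *Mymx* is left out because its level in the Pax7 group was 0. *Mymk* at 10.23 and *Tmem182* at 7.48 lie farthest to the right and *Gli1* at -3.34 farthest to the left.

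The design asks whether these genes differ in cells recovered after loss of α-catenins. The control and α-cdKO samples were compared as 2 against 2. Of the 9 genes tested over all lineage cells, 0 passed with edgeR (14764 genes tested, 0.196% called). *Mymk* had 5.27, 18.9, 16.2 and 15.5 CPM. Control replicate 1 was low and control replicate 2 the highest of all, so the genotypes overlapped (log2 fold change 0.40 ± 0.50, adjusted p = 0.858). In a sum over all cells, fewer cells of a type and less RNA per cell cannot be told apart. *Cdon*, *Jam3* and *Dock1* had small differences with SEs of 0.13 to 0.15 (0.00, 0.02 and -0.07), *Boc* and *Neo1* were at -0.23 ± 0.19 and -0.16 ± 0.16, and *Cav3*, *Mymx* and *Myof* at 0.10 ± 0.23, 0.05 ± 0.77 and 0.45 ± 0.37. At an unadjusted p under 0.05 the number of the 9 genes was also 0, and DESeq2 called 0.

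Within the Myog group, where a different number of such cells does not enter, 0 of 9 genes passed (9427 tested, 0.276% called). *Jam3* had 143, 166, 104 and 126 CPM, with no overlap between genotypes, and did not pass (log2 fold change -0.41 ± 0.19, adjusted p = 0.936). *Cav3* likewise did not overlap, at 25.5 and 15.2 against 11.8 and 14.97 CPM (-0.53 ± 0.33, adjusted p = 0.938), nor did *Myof*, at 3.52 and 3.69 against 10.3 and 5.35 CPM (1.13 ± 0.50, adjusted p = 0.936). With 6 splits of 4 samples the smallest exact permutation p is 0.33, so a lack of overlap is common by itself. Its share over all genes was not counted. *Mymk* overlapped (-0.10 ± 0.25), as did *Mymx* (-0.36 ± 0.57), *Cdon* (0.09 ± 0.25), *Boc* (0.55 ± 0.61), *Neo1* (-0.29 ± 0.33) and *Dock1* (0.23 ± 0.37). In the Pax7 and the Myod1 groups 0 of 7 genes tested passed, where 0.109% and 0.134% of genes were called. The step from the Pax7 to the Myog group differed between genotypes past the threshold for 0 of the 9 genes (0.242% of 11586 called). The test for *Mymx* was void because its Pax7 group was at 0. *Cav3*, whose step was smaller in the α-cdKO samples by -2.004 ± 0.65, had an adjusted p of 0.433.

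**Figure D5:**
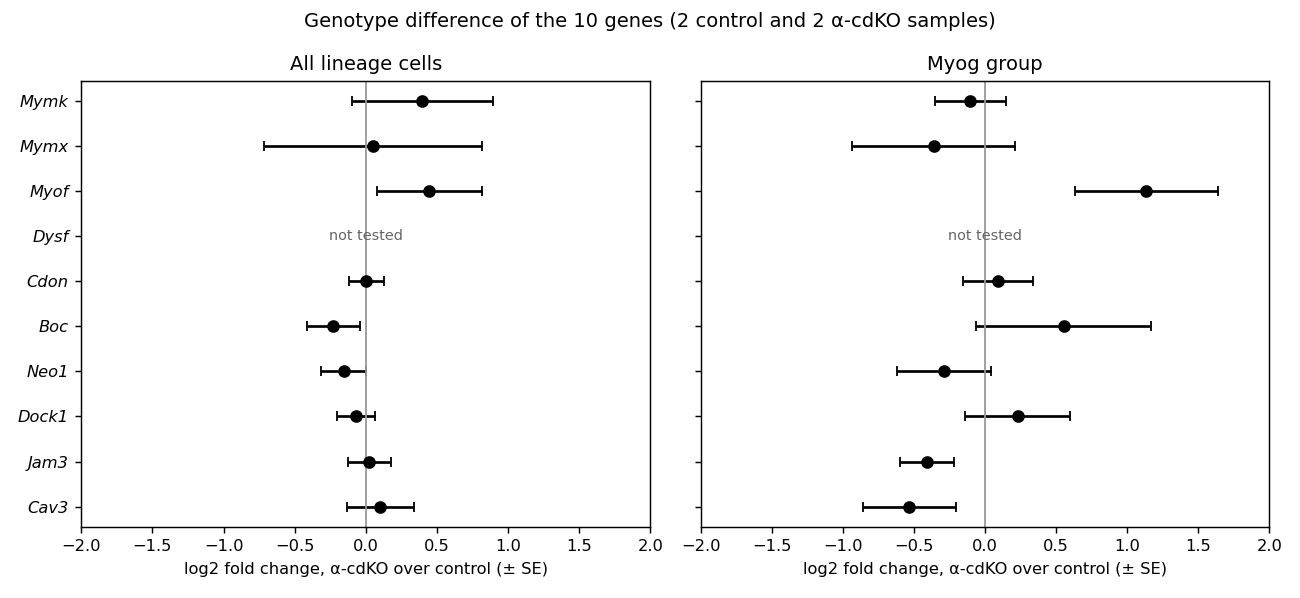
Log2 fold change of α-cdKO over control (edgeR, 2 samples per genotype, bars are SE) of 9 of the 10 genes over all lineage cells and within the Myog group, where *Dysf* was not tested. None of the 9 passed an adjusted p of 0.05. In the Myog group *Jam3* is at -0.41 and *Cav3* at -0.53, and *Myof* at 1.13.

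The share of lineage cells in the Myog group at 4000 UMIs per cell was 1.07%, 2.50%, 3.49% and 2.47%, and 1.32%, 3.53%, 4.26% and 2.94% without thinning. A two-sided exact permutation test gave p = 0.67, where 6 splits allow no p below 0.33. Without the deepest 5% of cells the shares were 0.631%, 1.48%, 2.62% and 1.96%, and the genotypes did not overlap (exact permutation p = 0.33). Cells with a *Mymk* UMI made up 0.576%, 1.32%, 1.74% and 1.55%, and the genotypes did not overlap (exact permutation p = 0.33, the smallest possible). At 2000 UMIs per cell they did overlap (0.361% and 1.18% against 1.15% and 0.962%). A *Mymx* UMI was found in 4, 10, 6 and 6 cells, or 0.0822%, 0.236%, 0.0713% and 0.0784% (exact permutation p = 0.33), and the difference reversed at 2000 UMIs per cell, without thinning and without the deepest 5% of cells.

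α-cdKO replicate 1 was the only sample with more than 1 cell that held *Xist* but no UMI of a Y-linked gene. Of its cells thinned to 4000 UMIs, 4587 were female by this measure and 2540 male (Y-linked UMIs, *Xist* at 0). A *Mymk* UMI was found in 2.68% (2.23 to 3.19) of the female and 0.472% (0.244 to 0.824) of the male cells, and the Myog group took 5.01% and 1.30% of them. Among Myog group cells themselves, *Mymk* was at 250 CPM in the 285 female cells and 174 CPM in the 44 male cells, and *Jam3* at 112 and 53.0 CPM. When male cells alone were compared, the share with *Mymk* was 0.633%, 1.32%, 0.472% and 1.69%, and the genotypes overlapped. The Myog group took 1.19%, 2.61%, 1.30% and 2.52% of the male cells, with overlap as well. The difference of the mean Myog group share, α-cdKO minus control, was 0.0074 percentage points in male cells. Over all lineage cells it was 1.20. The sex and the animal cannot be told apart here.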

How the data were processed

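The authors sorted tdTomato+ cells, loaded 30000 per sample on 10x 3′ version 3 chips and counted UMIs with Cell Ranger 7.1.0 on GRCm38. They deposited raw counts of UMIs per gene and cell barcode, without normalization. Seurat 4.0.3 is also named in the submitters' processing notes. The reads were not analyzed. 

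Kept cells, lineage cells and cell groups were defined as in the report. No doublet caller was run, and an alternative leaves out the 5% of cells with the most UMIs in each sample. Sample totals were 46099310 to 74921651 UMIs. Sums of UMIs per sample and group went into the quasi-likelihood test of edgeR 4.0.16, after filterByExpr and TMM scaling, over all genes, with Benjamini-Hochberg adjustment and a threshold of 0.05. Steps between groups had the sample as a block, and genotypes were compared over 2 against 2 samples, each a separate pool of mice. CPM values are per total UMIs, without TMM factors. Shares were compared with exact permutation tests in scipy, on cells thinned to 4000 UMIs. Intervals are Clopper-Pearson intervals at 95%, and the limit for a count of 0 is 3 counts.

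The 10 genes, the lists and the tests were chosen with earlier results of these data known. All 10 genes are named. Of each partner list, up to 3 genes with the largest rise and fall that passed are named, and for each gene the 3 most like it. On simulated data with known changes, the step test found 83.8% of changes of 1 and 100% of changes of 2 on the log2 scale (10771 genes), and the genotype test over lineage cells 67.0% and 100% (14764 genes), with 0 in the wrong direction. Each simulation also called 19 genes that had no change. Only genes with a mean above 2 CPM were changed, and in lineage cells *Mymx* and *Cav3* lay below this. The simulated means differed between samples only by library size and the set changes. The percentages are over 100 changed genes of each size, and do not give the power for any of the 10 genes. The genotype test within the Myog group was not simulated. Gene positions are from GENCODE M21. Alternatives covered scaling, DESeq2 1.42.0, the count filter, cell filters, group definitions, thinning, replicate blocks and each sample left out.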

Additional observations from a re-analysis of the deposited data

How the results depend on the processing

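The rise of *Mymk*, *Mymx*, *Jam3* and *Cav3* and the fall of *Cdon*, *Boc*, *Neo1* and *Dock1* from the Pax7 to the Myog group passed under every alternative run. The log2 fold change ranged from 9.90 to 11.34 for *Mymk*, 2.46 to 2.71 for *Jam3*, 3.41 to 4.31 for *Cav3*, -1.21 to -0.44 for *Cdon*, -2.14 to -1.60 for *Boc*, -0.98 to -0.72 for *Neo1* and -1.03 to -0.68 for *Dock1*. Over the steps between groups and the genotype tests in lineage cells and in the Myog group, 525 single-gene alternatives kept direction and call. Of the rest, 34 turned, 13 lost a call and 6 gained one, and the causes were not tested. *Mymx* was counted only in these genotype tests. Library totals, the crossed block and cells with Y-linked UMIs only were alternatives chosen after seeing the data. Of the 10 genes, 2 fell from the Pax7 to the Myod1 group, but 4 with library totals, 1 with DESeq2, and 3 without control replicate 2 (*Myof* added) or without α-cdKO replicate 2 (*Boc* added), and 3 fell from the Myod1 to the Myog group, but 1 with library totals and 1 without the 5% of cells with the most UMIs. Without those cells *Myof* turned to -0.24 (Myog against Pax7), 0.029 (Myod1 against Pax7) and -0.23 (Myog against Myod1), and *Cdon* to 0.28 (Myog against Myod1, 0.094 with library totals). With groups from thinned cells *Myof* was at 0.047 (Myod1 against Pax7), and with library totals *Jam3* at -0.059. With 1 sample left out, the Myod1 against Pax7 values ranged from -0.54 to 0.046 for *Myof*, -0.15 to 0.48 for *Cav3* and -0.0065 to 0.14 for *Jam3*.

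In lineage cells, the genotype difference of *Cdon* turned to -0.0019 with mature muscle UMIs under 1% and to -0.037 without the deepest 5% of cells, and that of *Cav3* to -0.61 in all kept cells and -0.013 with mature muscle UMIs under 5%. In the Myog group, without the deepest 5%, *Mymk* was at 0.075, *Mymx* at 0.28 and *Cdon* at -0.24. *Cdon* was at -0.049 with at least 2 *Myog* UMIs, and *Dock1* at -0.037 with groups from thinned cells. With 1 sample left out the lineage values ranged from -0.24 to 1.57 for *Mymk*, -0.76 to 1.96 for *Mymx*, -0.43 to 0.014 for *Boc*, -0.0044 to 0.21 for *Cav3*, -0.076 to 0.082 for *Cdon* and -0.11 to 0.17 for *Jam3*, and those of the Myog group from -0.43 to 0.36 for *Mymk*, -1.29 to 0.93 for *Mymx*, -0.15 to 0.30 for *Cdon* and -0.13 to 0.65 for *Dock1*. The lone sample left in a genotype is then assumed to vary like the other. The *Mymx* share difference turned from -0.0843 to 0.0246 percentage points at 2000 UMIs, 0.0284 without thinning and 0.0294 without the deepest 5%.

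Counts over all genes moved more. From the Pax7 to the Myod1 group 5685 genes passed, and 3751 with DESeq2. Between genotypes 29 passed in lineage cells, against 141 with DESeq2, 0 in all kept cells and 1 to 125 with 1 sample left out. In the Myog group 26 passed, against 11 with library totals, 153 with no count filter, 2 in all kept cells, 1 with mature muscle UMIs under 1%, 45 without the deepest 5%, 4 with at least 2 *Myog* UMIs and 25 to 77 with 1 sample left out. In the Pax7 group 13 passed, against 43 with DESeq2, 373 with no filter, 6 in all kept cells, 5 with groups from thinned cells and 13 to 90 with 1 sample left out. In the Myod1 group 16 passed, against 56 with DESeq2, 450 with no filter and 3 to 78 with 1 sample left out. The genotype difference of the step passed for 28 genes, and 13 with DESeq2.

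Control and α-cdKO samples share replicate numbers, but same-numbered samples did not deviate together (r = -0.19 across 14764 genes, which are not independent replicates). With the replicate block 12 genes passed in lineage cells, 34 in the Myog group, 9 in the Pax7 group and 20 in the Myod1 group. With the crossed pairing of the block these were 150, 36, 117 and 218.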
